A study of Mus musculus with 12 samples.

Results

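Interferon-stimulated genes are the genes that a cell switches on when interferon reaches its receptors. The set described here held 45 of them, picked by symbol out of the 78317 genes of the deposited table, with 1 gene identifier each. They were read in 4T1, a mouse triple-negative mammary carcinoma line. The 4 groups were PBRM1 knockout (KO) cells with 5 ng/ml TGFβ1 for 4 days, control cells with the same treatment, untreated PBRM1 KO cells and untreated control cells, in 3 biological replicates each. PBRM1 is a bromodomain protein of the PBAF chromatin remodelling complex, and TGFβ1 is a cytokine that signals through SMAD proteins. The KO cells are labelled as 1 genotype. The guide, the edited site and whether the cells were a clone are not stated there. The untreated samples carry a 0 h name although the protocol speaks of cells kept with or without TGFβ1, so the treatment and the 4 days in culture cannot be told apart.

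Type I interferons bind IFNAR1 and IFNAR2, whose kinases JAK1 and TYK2 phosphorylate STAT2. Together with IRF9 it is part of a factor that binds the interferon-stimulated response element (ISRE) in promoters. Interferon gamma binds IFNGR1 and IFNGR2 and acts through a different site, the gamma-activated sequence (GAS). The products detect and degrade viral RNA, block its translation, tag proteins with the ubiquitin-like ISG15 and, through chemokines such as CXCL10, attract T cells. Carcinoma cells can hold a basal level of these transcripts without added interferon.

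Transcripts were counted at their 3′ ends after removal of duplicates, levels are in CPM (counts scaled to the library total), and totals ran from 9265693 to 11250850 counts. Of the 78317 genes, 35661 had any count and 14012 held enough counts to be tested. Pbrm1 itself, the targeted gene, lay at 222 to 274 CPM in KO libraries with TGFβ1, against 276 to 292 CPM in control libraries with TGFβ1, and at 207 to 245 CPM in untreated KO libraries, against 258 to 328 CPM in untreated controls. These 3′ counts need not read the edited part. Epithelial marker genes summed to between 1623 and 2401 CPM over the 12 libraries, 6 fibroblast markers to between 28.2 and 106 CPM and 4 endothelial markers to between 0.0921 and 1.28 CPM. The 8 leukocyte markers summed to between 5.70 and 10.1 CPM, most of it Cd68 (3.62 to 7.83 CPM) and Lyz2 (1.17 to 2.58 CPM). Among them Ptprc lay between 0 and 0.181 CPM and the macrophage marker Adgre1 between 0 and 0.0946 CPM. Of the 2 markers of plasmacytoid dendritic cells, Siglech lay between 0 and 0.0226 CPM and Irf8 between 4.37 and 11.2 CPM. TGFβ1 replicate 3 of both genotypes stood apart. The median of 7 TGFβ response genes, in log2 above untreated control cells, was 1.68, 1.5 and 0.73 in KO replicates 1, 2 and 3 with TGFβ1, and 1.32, 1.26 and 0.40 in control replicates 1, 2 and 3 with TGFβ1. Results with TGFβ1 are therefore given with and without both of these libraries, which were picked after their low response was seen. The fit without them keeps the untreated replicate 3 libraries. In those the genes of the set were also lowest of their group (medians −0.56 in KO and −0.25 in control). That fit therefore leans towards a rise of the set with TGFβ1, and its adjusted p-values carry this limit.

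Of the 45 members, 41 were tested. Mx1 and Mx2, dynamin-like GTPases that trap viral nucleocapsids, Oas2 and Ifit3b held too few counts. Mx1 had 1 count in KO replicate 2 with TGFβ1, in control replicate 2 with TGFβ1 and in untreated control replicate 3, and 0 counts in the other 9 libraries. Oas3, Ifit3 and Trim30a passed the filter on low counts with all 3 libraries above it in only 1 group, untreated control cells for Oas3 and Trim30a and TGFβ1-treated control cells for Ifit3, so a difference between groups was built into their entry. Cmpk2 had all 3 libraries above the filter in the 2 control groups only, and no KO library with TGFβ1 above it, so its entry rested on the groups where it was high.

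**Figure D1:**
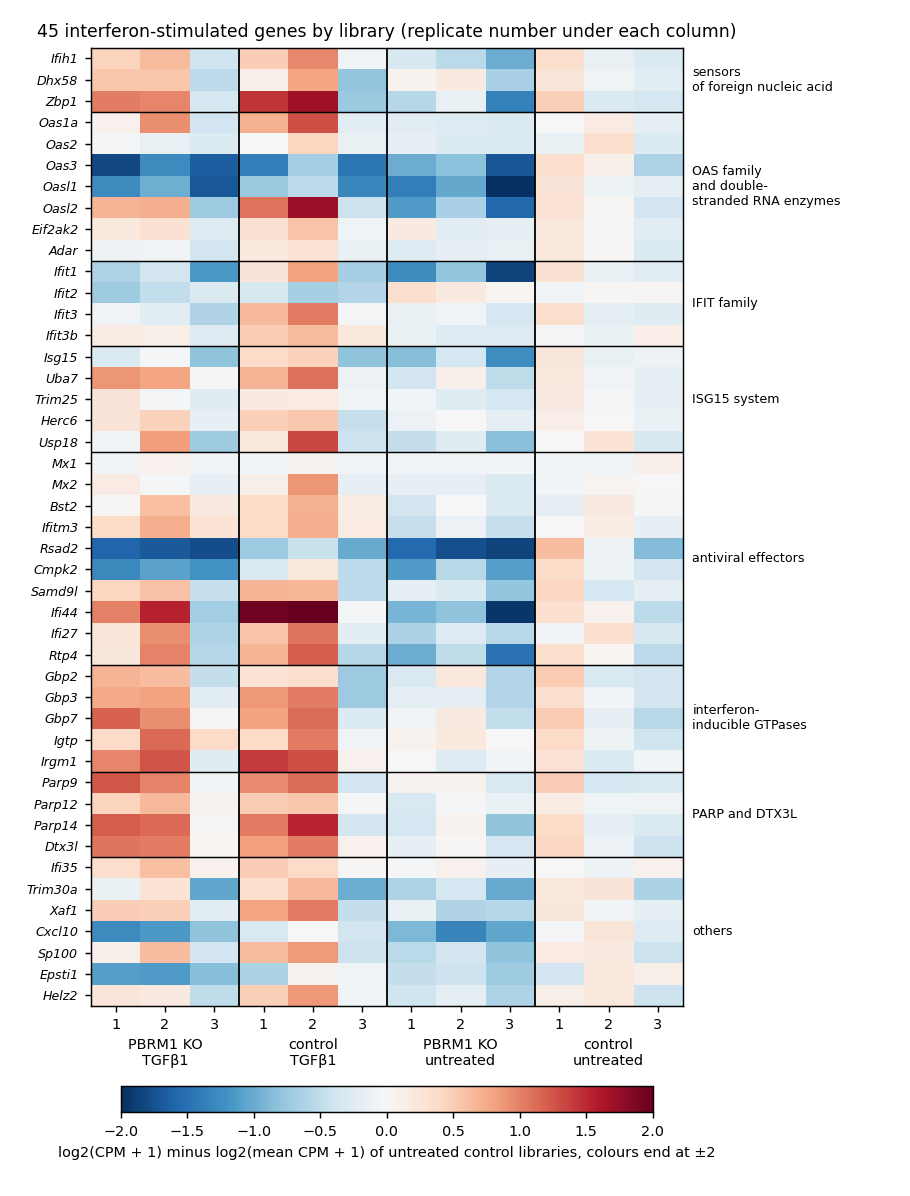
Level of all 45 interferon-stimulated genes in each of the 12 libraries, as log2(CPM + 1) minus the log2 of the untreated control mean, with genes in rows grouped by role and replicate numbers under the columns. Replicates 1 and 2 with TGFβ1 are mostly red, above the untreated control mean in 30 and 31 of 45 rows for PBRM1 KO and in 37 and 41 for control, while replicate 3 is above it in 9 and 6 rows.

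The promoters of the set were read for the elements that these factors bind. RefSeq promoter windows of build GRCm38.p6, from 250 bases before to 50 bases after the start of the gene, were at hand for 35 of the 45 members. The ISRE core was searched as GAAA, any 2 bases and GAAA, on both strands. It was found in 18 of the 35 windows (51.4%), against 1079 of all 27025 windows (3.99%). A longer form, the core followed by CT on either strand, was found in 12 windows (34.3%), against 82 of all windows (0.303%). The GAS letters TTCNNNGAA, the same on both strands, were found in 9 windows (25.7%), against 2582 of all windows (9.55%). The core lay upstream of the start in 15 of the 18. No core letters were in the windows of Oasl1, Oasl2, Ifit2, Cmpk2, Ifi44, Dtx3l and Parp12, which says only that these letters are not in that stretch.

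The 250 bases upstream of 6 members are shown 5′ to 3′ on the gene's strand, with the ISRE core in capitals. Bst2, Isg15 and Gbp2 are the members with the highest CPM and a core upstream of the start, and Rsad2, Cxcl10 and Oas3, chosen after their values were seen, are members whose transcripts were lower in a comparison given further on. The windows are chr8:71537473-71537722, minus strand, for Bst2; chr4:156200819-156201068, minus strand, for Isg15; and chr3:142620413-142620662, plus strand, for Gbp2. They are chr12:26456453-26456702 for Rsad2, chr5:92348890-92349139 for Cxcl10 and chr5:120777660-120777909 for Oas3, all on the minus strand.
Bst2: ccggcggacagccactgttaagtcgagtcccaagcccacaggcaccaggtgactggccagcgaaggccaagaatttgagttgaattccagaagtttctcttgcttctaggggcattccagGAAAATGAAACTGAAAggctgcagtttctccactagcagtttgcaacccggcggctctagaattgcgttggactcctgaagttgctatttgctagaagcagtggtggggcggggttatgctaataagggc
Isg15: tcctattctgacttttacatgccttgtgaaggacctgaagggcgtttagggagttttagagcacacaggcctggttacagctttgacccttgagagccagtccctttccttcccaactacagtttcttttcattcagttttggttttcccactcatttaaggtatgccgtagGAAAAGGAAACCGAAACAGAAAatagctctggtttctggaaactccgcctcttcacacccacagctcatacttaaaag
Gbp2: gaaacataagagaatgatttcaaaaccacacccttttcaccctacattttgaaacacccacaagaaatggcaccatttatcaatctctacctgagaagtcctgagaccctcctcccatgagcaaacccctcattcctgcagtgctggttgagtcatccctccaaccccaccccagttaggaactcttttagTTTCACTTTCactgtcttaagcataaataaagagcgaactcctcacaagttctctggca
Rsad2: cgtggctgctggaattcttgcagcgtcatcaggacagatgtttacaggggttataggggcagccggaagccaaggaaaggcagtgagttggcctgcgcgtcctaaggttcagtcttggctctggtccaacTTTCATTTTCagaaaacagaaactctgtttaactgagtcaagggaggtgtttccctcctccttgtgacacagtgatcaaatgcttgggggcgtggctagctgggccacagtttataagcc
Cxcl10: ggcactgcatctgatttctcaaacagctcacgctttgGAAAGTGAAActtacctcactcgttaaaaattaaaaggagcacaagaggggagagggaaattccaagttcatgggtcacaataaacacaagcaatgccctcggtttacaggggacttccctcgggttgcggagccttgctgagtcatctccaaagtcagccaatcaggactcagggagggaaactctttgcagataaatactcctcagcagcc
Oas3: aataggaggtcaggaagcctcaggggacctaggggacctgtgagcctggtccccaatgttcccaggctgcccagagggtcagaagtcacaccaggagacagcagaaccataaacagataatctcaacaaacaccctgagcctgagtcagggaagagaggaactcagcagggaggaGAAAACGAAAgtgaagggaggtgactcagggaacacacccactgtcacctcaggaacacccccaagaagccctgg
In Bst2, 2 overlapping cores ran from base 130 to base 115 before the start, and in Isg15 there were 3 overlapping cores from base 78 to base 57. The single core of Gbp2 lay at bases 59 to 50, that of Rsad2 at 120 to 111, that of Oas3 at 75 to 66 and that of Cxcl10 at 213 to 204. Some members are also neighbours in the RefSeq order of protein-coding genes: Rsad2 lies beside Cmpk2, Oasl1 beside Oasl2, Oas2 beside Oas3, Ifit2 beside Ifit3, Gbp3 beside Gbp7, and Dtx3l between Parp14 and Parp9.

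In untreated cells, 3 members fell in the PBRM1 knockout and none rose (edgeR's quasi-likelihood test, Benjamini-Hochberg adjusted p below 0.05 over all 14012 genes). They were Rsad2, whose product viperin makes a chain-terminating nucleotide that stops viral RNA synthesis, Oasl1, an oligoadenylate synthetase-like protein known in mice to hold back translation of Irf7, and the chemokine Cxcl10. Over all tested genes 0.236% were lower and 0.0428% were higher in this comparison. This question, what loss of PBRM1 does to the basal level of the set, was also read from the direction of every member: 39 of the 41 tested had a log2 fold change below 0 and 2 above it, with a median of −0.38, beside −0.003 for all tested genes. Without untreated control replicate 1 the split was 31 below and 10 above (median −0.32), and without untreated KO replicate 3 it was 34 below and 7 above (median −0.28). Members read in the same libraries are not separate observations, and they were chosen with earlier results of these data known. By library the genotypes overlapped: the median of the set was −0.31, −0.24 and −0.56 in untreated KO, against 0.22, −0.05 and −0.25 in untreated control libraries (log2 from untreated control).

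Rsad2 was counted at 1.96, 1.55 and 1.39 CPM in untreated KO libraries, against 12.2, 7.0 and 3.72 CPM in untreated control libraries. All KO libraries lay below all control libraries, and the controls differed among themselves more than the KO libraries did. The log2 fold change of Rsad2 was −2.23 ± 0.36 (SE, n = 3 each, adjusted p = 0.0195). Cmpk2, which stands next to Rsad2 in the genome and encodes a kinase that helps make the nucleotide viperin uses, was named after its values were seen. It had 0.533, 1.27 and 0.555 CPM in untreated KO libraries, against 3.34, 2.12 and 1.60 CPM in untreated control libraries. These groups did not overlap either, but the log2 fold change of −1.58 ± 0.41 did not pass (adjusted p = 0.18).

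Cxcl10 stood at 3.38, 2.27 and 2.96 CPM in untreated KO libraries, against 6.96, 8.66 and 5.85 CPM in untreated control libraries, without overlap. Its log2 fold change was −1.32 ± 0.22 (adjusted p = 0.0259). For Oasl1 the untreated KO libraries held 14.6, 18.8 and 9.15 CPM, against 47.4, 36.6 and 34.5 CPM in untreated control libraries. The highest KO library was well under the lowest control, and the log2 fold change was −1.48 ± 0.26 (adjusted p = 0.03). The calls of Rsad2, Oasl1 and Cxcl10 each held in 7 of 12 fits that left out 1 library, mostly fits that left out a TGFβ1 library, which is not in this comparison. The count fell to 0 without untreated control replicate 1, untreated control replicate 2, untreated KO replicate 1 or untreated KO replicate 3, and to 1 without untreated KO replicate 2. With an untreated library left out, Rsad2 and Cxcl10 held only without control replicate 3, and Oasl1 only without KO replicate 2.

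Isg15, Ifit1 and Oasl2 did not pass with all 12 libraries. Without both TGFβ1 replicate 3 libraries, which leaves the untreated libraries as they were and changes the shared estimate of spread, 6 members were lower in untreated KO cells, beside 1.02% of all genes: Cxcl10, Ifit1, Isg15, Oasl1, Oasl2 and Rsad2. With only the libraries compared in the fit, 5 were lower, Ifit1 and Oasl2 among them, beside 101 of all 13412 genes. Isg15, the ubiquitin-like modifier, had 27.1, 38.9 and 20.5 CPM in untreated KO libraries, against 58.3, 45.1 and 46.3 CPM in untreated control libraries, with a log2 fold change of −0.79 ± 0.30 (adjusted p = 0.529; without both replicate 3 libraries 0.0336). Ifit1, which binds viral RNA that lacks the host cap methylation, had 4.00, 5.91 and 2.31 CPM in untreated KO libraries, against 13.7, 9.86 and 9.15 CPM in untreated control libraries (−1.42 ± 0.39, adjusted p = 0.229; without both replicate 3 libraries 0.0115). For Oasl2, a relative of Oasl1, the values were 10.9, 15.8 and 7.86 CPM in untreated KO libraries, against 30.9, 25.7 and 19.2 CPM in untreated control libraries (−1.13 ± 0.49, adjusted p = 0.61; without both replicate 3 libraries 0.0198). In these genes too no KO library reached the lowest control.

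In all, 12 of the 41 tested members had all 3 untreated KO libraries below all 3 untreated controls, and 1, Ifit2, had them above. Over all 14012 tested genes these shares were 8.71% below and 6.95% above. Of the 12, Oas3 and Cmpk2 had all 3 libraries of a group above the filter on low counts only among control cells. Their place in this count was therefore partly built in. They also enter the medians given next, Oas3 in the OAS family and Cmpk2 in the antiviral effectors. By class, the median log2 fold change in untreated cells was lowest in the antiviral effectors (−0.78), the OAS family with the double-stranded RNA enzymes (−0.72) and the sensors of foreign nucleic acid (−0.66). It was −0.31 in the ISG15 system, −0.16 in the PARP and Dtx3l class and −0.14 in the interferon-inducible GTPases. The RNA sensor Ifih1, also called MDA5, had 8.98, 7.64 and 5.27 CPM in untreated KO libraries, against 15, 10.3 and 9.26 CPM in untreated controls (−0.66 ± 0.32, adjusted p = 0.7). Gbp2, a guanylate-binding protein that attacks vacuoles holding pathogens, showed overlapping groups, with 20.7, 30.0 and 16.9 CPM in untreated KO libraries, against 37.3, 20.8 and 19.7 CPM in untreated controls (−0.20 ± 0.35, adjusted p = 0.976).

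**Figure D2:**
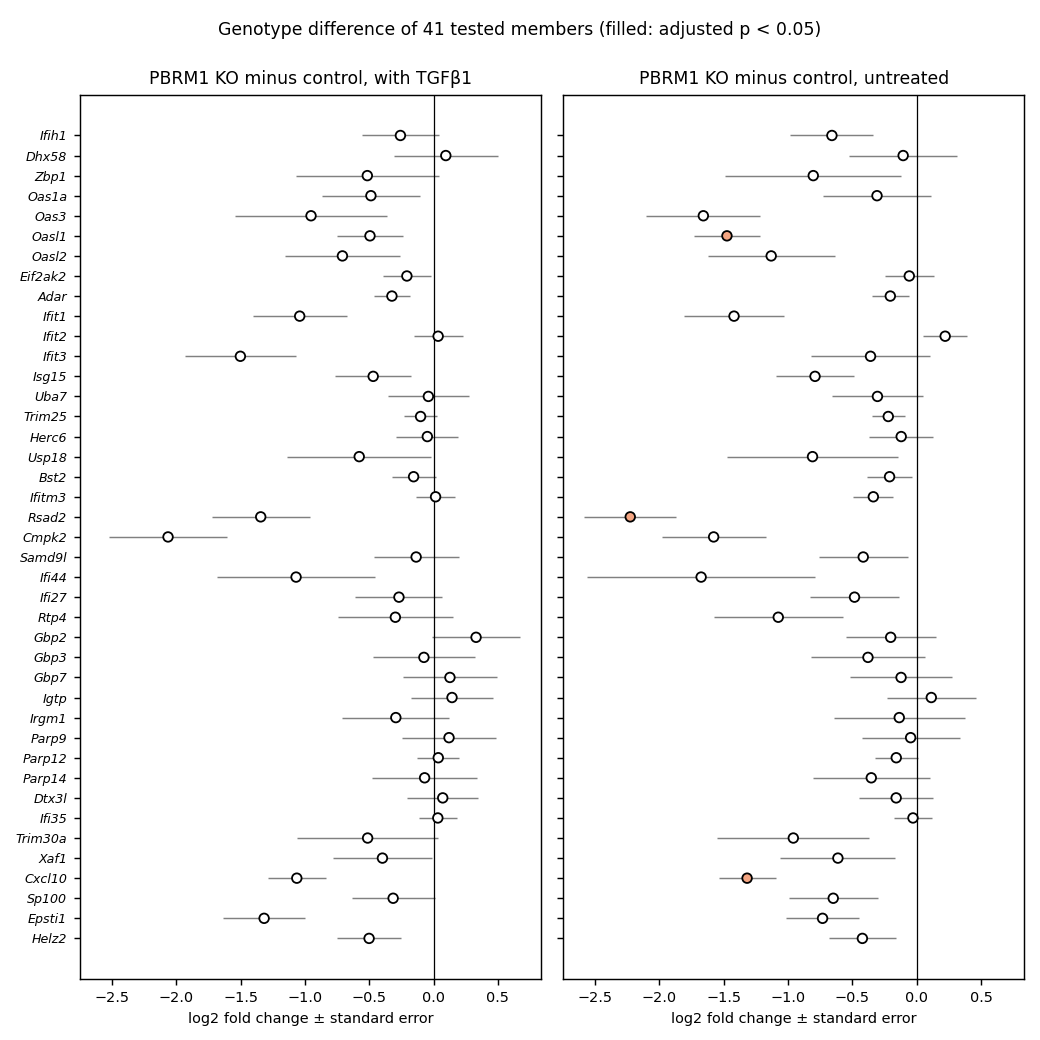
Log2 fold change of PBRM1 KO over control for the 41 tested members, with TGFβ1 on the left and untreated on the right; points are estimates, bars are ± 1 standard error and filled points have an adjusted p under 0.05. Filled points are Rsad2, Oasl1 and Cxcl10 in untreated cells, and most points lie left of 0 (31 of 41 with TGFβ1, 39 of 41 untreated; with TGFβ1 this falls to 22 of 41 without control replicate 2).

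With TGFβ1, 0 of the 41 tested members passed between PBRM1 KO and control cells, where 0.2% of all tested genes were lower and 0.0714% higher. At an unadjusted p under 0.05 there were 7 members, beside 1194 of all 14012 genes. DESeq2 called 2 as lower, Cmpk2 and Cxcl10, beside 64 of all 14012 genes. Same-numbered libraries deviated together in this comparison, and with the replicate number as a block 7 members were lower and 0 higher, beside 0.778% of all genes lower: Cmpk2, Cxcl10, Epsti1, Ifi44, Ifit1, Ifit3 and Rsad2. Of these, Cmpk2 and Ifit3 had all 3 libraries of a group above the filter on low counts only among control cells. Without both TGFβ1 replicate 3 libraries 1 member was lower, Cxcl10 (−1.37 ± 0.26, adjusted p = 0.0268), beside 0.386% of all genes. The median log2 fold change of the 41 was −0.29, beside −0.003 for all genes, with 31 below 0 and 10 above. That median rested on single libraries: it was −0.01 (22 below, 19 above) without control replicate 2 with TGFβ1 and −0.09 (23 below, 18 above) without KO replicate 3 with TGFβ1, but −0.54 (39 below, 2 above) without control replicate 3 with TGFβ1 and −0.53 (37 below, 4 above) without KO replicate 2 with TGFβ1.

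Rsad2 had 1.89, 1.69 and 1.52 CPM in KO libraries with TGFβ1, against 4.21, 5.34 and 3.31 CPM in control libraries with TGFβ1 (−1.34 ± 0.38, adjusted p = 0.239; with the replicate block −1.36 ± 0.29, adjusted p = 0.0432). Cxcl10 had 2.36, 2.69 and 3.66 CPM in KO libraries with TGFβ1, against 5.61, 7.24 and 5.30 CPM in control libraries with TGFβ1 (−1.06 ± 0.23, adjusted p = 0.0849; with the replicate block 0.0436). Neither gene's groups overlapped, as without treatment. Cmpk2 had 0.377, 0.597 and 0.447 CPM in KO libraries with TGFβ1, which is 4, 6 and 5 counts, against 1.73, 2.89 and 1.32 CPM in control libraries with TGFβ1. Its log2 fold change was −2.06 ± 0.46 (adjusted p = 0.102; with the replicate block 0.0296), and it was in the test through its control libraries. Of the 41 tested members 5 had all KO libraries below all controls with TGFβ1 and 0 had them above, against 5.61% and 6.28% of all tested genes. The 5 were Rsad2, Cmpk2, Cxcl10, Ifit3 and Epsti1, named for epithelial-stromal interaction in breast cancer. Ifit3, like Cmpk2, was in the test through its control libraries.

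The other leading members overlapped between genotypes with TGFβ1. Isg15 had 40.8, 49.2 and 28.2 CPM in KO libraries with TGFβ1, against 64.7, 69.4 and 28.2 CPM in control libraries with TGFβ1 (−0.47 ± 0.30, adjusted p = 0.744). Ifit1 had 6.79, 8.27 and 4.38 CPM in KO libraries with TGFβ1, against 13.3, 19.7 and 6.53 CPM in control libraries with TGFβ1 (−1.04 ± 0.36, adjusted p = 0.388; with the replicate block 0.0461). In both genes KO and control replicate 3 were each the lowest of their group. Oasl1 had 15.9, 19.5 and 11.5 CPM in KO libraries with TGFβ1, against 23.1, 27.1 and 15.3 CPM in control libraries with TGFβ1 (−0.49 ± 0.26, adjusted p = 0.655).

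Whether TGFβ1 acted on the set differently in KO and control cells was asked with the interaction of genotype and treatment. It called 0 of the 41 members and 0 of all 14012 tested genes, a background of 0%, with 1 member at an unadjusted p under 0.05 and 0 calls by DESeq2. The median difference in log2 fold change over the members, KO minus control, was 0.23, beside 0.003 for all genes. It moved with single libraries: leaving out control replicate 2 or KO replicate 3 with TGFβ1 gave 0.54 and 0.50, leaving out control replicate 3 or KO replicate 2 with TGFβ1 gave −0.06 and 0.07, and leaving out untreated control replicate 1 or 3 or untreated KO replicate 2 or 3 gave 0.08, 0.36, 0.35 and 0.10.

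**Figure D3:**
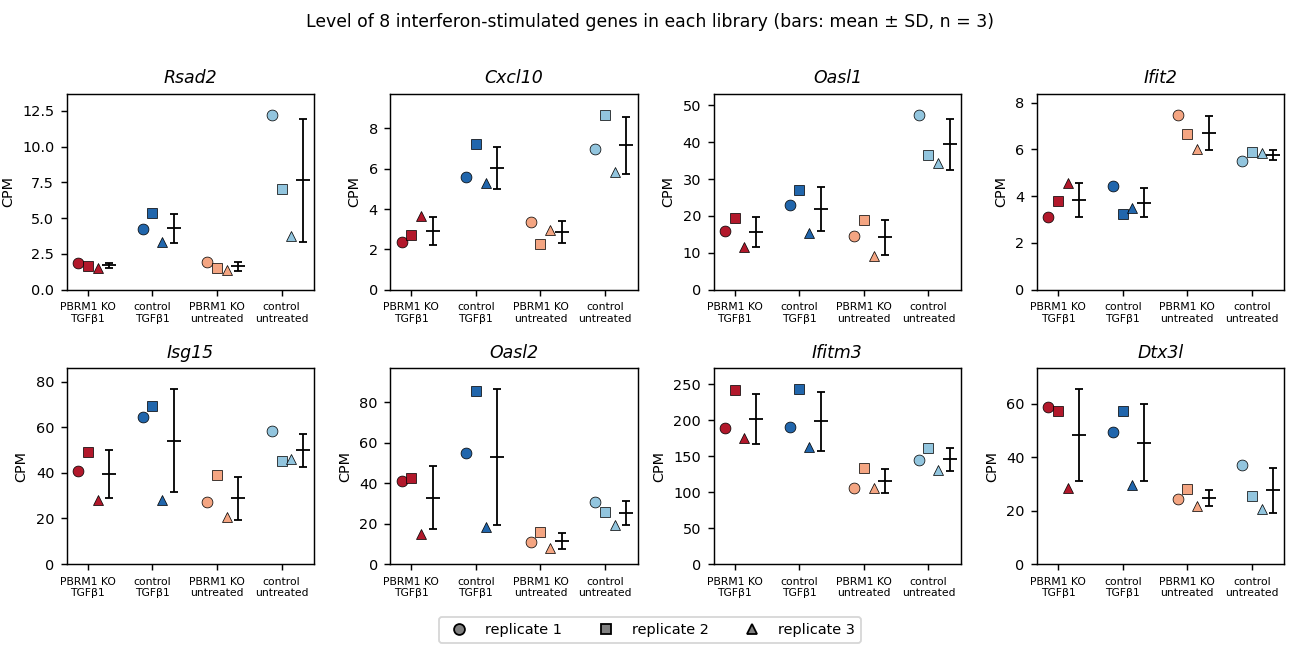
Level in CPM of 8 members in every library, 1 panel a gene, with the groups along the x axis, symbols for replicate numbers and bars for mean ± SD (n = 3). Rsad2, Cxcl10 and Oasl1 are lower in untreated KO than in untreated control libraries, Ifit2 is lower in the TGFβ1 groups, and in Isg15, Oasl2, Ifitm3 and Dtx3l TGFβ1 replicate 3 is the lowest of its group.

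With all 12 libraries few members passed for TGFβ1, and the number that passed depended on the replicate 3 libraries. In PBRM1 KO cells 3 of the 41 tested members rose, Ifitm3, Dtx3l and Parp12, and 1 fell, Ifit2. This was no more than the share of all tested genes, of which 7.65% rose and 3.72% fell. Deviations of same-numbered libraries correlated only weakly here (0.201, 0.139 and 0.202), and the choice of a replicate block rests on that. With the block 22 rose and 1 fell, beside 12% and 7.84% of all genes. Without both replicate 3 libraries 27 rose and 1 fell, beside 16% and 12%. That fit drops the low treated libraries but keeps untreated replicate 3, and the members' median log2 fold change went from 0.65 to 0.86. In control cells 0 members rose and 3 fell, Ifit2, Oas3 and Oasl1, beside 5.89% and 2.91% of all genes. Without both replicate 3 libraries 26 rose and the same 3 genes fell, beside 13.9% and 10%, and the members' median went from 0.44 to 0.69. Leaving out only KO replicate 3 with TGFβ1 gave 17 higher in KO cells, beside 1726 of all 14328 genes. Leaving out only control replicate 3 with TGFβ1, which also enters the shared estimate of spread, gave 15, beside 1401 of all 14329 genes. Without control replicate 2 with TGFβ1 there were 5, beside 1031 of all 14251 genes. Without untreated control replicate 1 there were 2, beside 941 of all 14320 genes. Without any other library there was 1, beside 438 to 934 of all genes. Ifit2 was no longer called in KO cells without KO replicate 1 with TGFβ1 or untreated KO replicate 1. In control cells 18 were higher, beside 1496 of all 14329 genes, and 0 lower without control replicate 3 with TGFβ1. There 2 were higher without KO replicate 3 with TGFβ1, beside 1092 of all 14328 genes. The count of lower members was 0 without control replicate 1 with TGFβ1, untreated control replicate 1 or untreated control replicate 2. It was 1 without control replicate 2 with TGFβ1 or untreated KO replicate 1. In the fits with these counts of lower members, 146 to 373 of all genes were lower.

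Ifitm3, which blocks fusion of enveloped viruses with endosomes, had 189, 242 and 176 CPM in KO libraries with TGFβ1, against 106, 134 and 106 CPM in untreated KO libraries. All treated libraries were above all untreated ones, and the log2 fold change of 0.80 ± 0.16 (adjusted p = 0.0062) passed in 12 of 12 fits that left out 1 library. In control cells Ifitm3 had 190.1, 243 and 163 CPM with TGFβ1, against 146, 162 and 130.2 CPM untreated (0.44 ± 0.15, adjusted p = 0.096). These groups did not overlap either, and without both replicate 3 libraries the difference passed (0.56 ± 0.14, adjusted p = 0.00891). The Ifitm3 count was fractional in 8 libraries, where some reads also matched another gene.

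Dtx3l, an E3 ubiquitin ligase that works in a pair with Parp9, had 58.9, 57.5 and 28.5 CPM in KO libraries with TGFβ1, against 24.5, 28.1 and 21.8 CPM in untreated KO libraries (0.94 ± 0.28, adjusted p = 0.0473). Treated replicate 3 lay barely above the highest untreated one. Control libraries held 49.6, 57.4 and 29.5 CPM of Dtx3l with TGFβ1, against 37.0, 25.4 and 20.6 CPM untreated, an overlap, with 0.71 ± 0.28 on the log2 scale (adjusted p = 0.136). Parp12, a mono-ADP-ribosyltransferase, had 37.3, 43.2 and 28.5 CPM in KO libraries with TGFβ1, against 21.9, 26.5 and 24.6 CPM in untreated KO libraries (0.57 ± 0.17, adjusted p = 0.0448). In control cells Parp12 had 39.0, 40.2 and 26.3 CPM with TGFβ1, against 30.1, 25.5 and 25.8 CPM untreated (0.37 ± 0.17, adjusted p = 0.19). Without both replicate 3 libraries the log2 fold changes were 1.21 ± 0.17 in KO cells (adjusted p = 7.26e-05) and 0.94 ± 0.17 in control cells (adjusted p = 0.000809) for Dtx3l, and 0.70 ± 0.11 in KO cells (adjusted p = 0.000269) and 0.53 ± 0.11 in control cells (adjusted p = 0.00287) for Parp12.

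Ifit2, a relative of Ifit1 that binds AU-rich RNA, went the other way. It had 3.11, 3.78 and 4.56 CPM in KO libraries with TGFβ1, against 7.47, 6.64 and 6.01 CPM in untreated KO libraries (−0.82 ± 0.18, adjusted p = 0.0106). Control libraries held 4.42, 3.26 and 3.50 CPM of Ifit2 with TGFβ1, against 5.51, 5.90 and 5.85 CPM untreated (−0.63 ± 0.18, adjusted p = 0.0466). The groups did not overlap in either genotype, and the treated level of replicate 3 was not the lowest in either genotype. Its neighbour Ifit3 did not pass in either genotype, at −0.21 ± 0.50 in KO cells (adjusted p = 0.836) and 0.94 ± 0.41 in control cells (adjusted p = 0.175). Ifit1 gave 0.65 ± 0.40 in KO cells (adjusted p = 0.328) and 0.27 ± 0.35 in control cells (adjusted p = 0.682). Ifit3 rose in control cells without both replicate 3 libraries (1.26 ± 0.32, adjusted p = 0.0106) and was at 0.09 ± 0.42 in KO cells (adjusted p = 0.902), while Ifit1 rose in KO cells (0.86 ± 0.30, adjusted p = 0.0458) and was at 0.59 ± 0.24 in control cells (adjusted p = 0.0895). With all 12 libraries, only TGFβ1-treated control cells had all 3 libraries of Ifit3 above the filter on low counts. The rise of Ifit3 carries that limit.

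Oasl1 and Oas3 fell with TGFβ1 in control cells. Oasl1 had 23.1, 27.1 and 15.3 CPM in control libraries with TGFβ1, against the 47.4, 36.6 and 34.5 CPM of untreated control libraries already given (−0.86 ± 0.25, adjusted p = 0.0489). Oas3, which makes the second messenger that activates RNase L, had 0.863, 1.99 and 0.757 CPM in control libraries with TGFβ1, against 5.15, 4.15 and 2.13 CPM in untreated control libraries (−1.64 ± 0.45, adjusted p = 0.0384). Only in untreated control cells, the group it fell from, were all 3 of its libraries above the filter on low counts. The call of Oas3 carries that limit. In KO cells Oas3 had 0.377, 0.996 and 0.536 CPM with TGFβ1, against 1.42, 1.73 and 0.462 CPM untreated (−0.94 ± 0.59, adjusted p = 0.331), and Oasl1 gave 0.13 ± 0.26 (adjusted p = 0.809). The knockout comparison without TGFβ1 and the TGFβ1 comparison in control cells both use the untreated control libraries, so the fall of Oasl1 in each is not 2 separate observations. For both genes untreated control cells held the highest level of the 4 groups.

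Oasl2 did not follow its neighbour Oasl1. It had 40.9, 42.7 and 14.8 CPM in KO libraries with TGFβ1, against 10.9, 15.8 and 7.86 CPM in untreated KO libraries (1.48 ± 0.49, adjusted p = 0.0676; with the replicate block 1.45 ± 0.25, adjusted p = 0.00131). In control cells Oasl2 had 54.9, 85.5 and 18.5 CPM with TGFβ1, against 30.9, 25.7 and 19.2 CPM untreated (1.06 ± 0.46, adjusted p = 0.171). It passed without both replicate 3 libraries, at 1.83 ± 0.24 in KO cells (adjusted p = 3.86e-05) and 1.46 ± 0.21 in control cells (adjusted p = 0.00016). Ifi44, named after its values were seen, had the highest estimates of the set, 2.68 ± 0.82 in KO cells (adjusted p = 0.0513; with the replicate block 8.75e-05) and 2.07 ± 0.66 in control cells (adjusted p = 0.0694). Its treated libraries held 8.97, 13.4 and 2.06 CPM in KO cells, against 1.60, 1.82 and 0.277 CPM untreated, and 18.1, 28.5 and 3.88 CPM in control cells, against 5.15, 4.24 and 2.45 CPM untreated. Its log2 fold changes without both replicate 3 libraries were 3.14 ± 0.40 in KO cells (adjusted p = 3.3e-05) and 2.54 ± 0.30 in control cells (adjusted p = 2.2e-05).

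**Figure D4:**
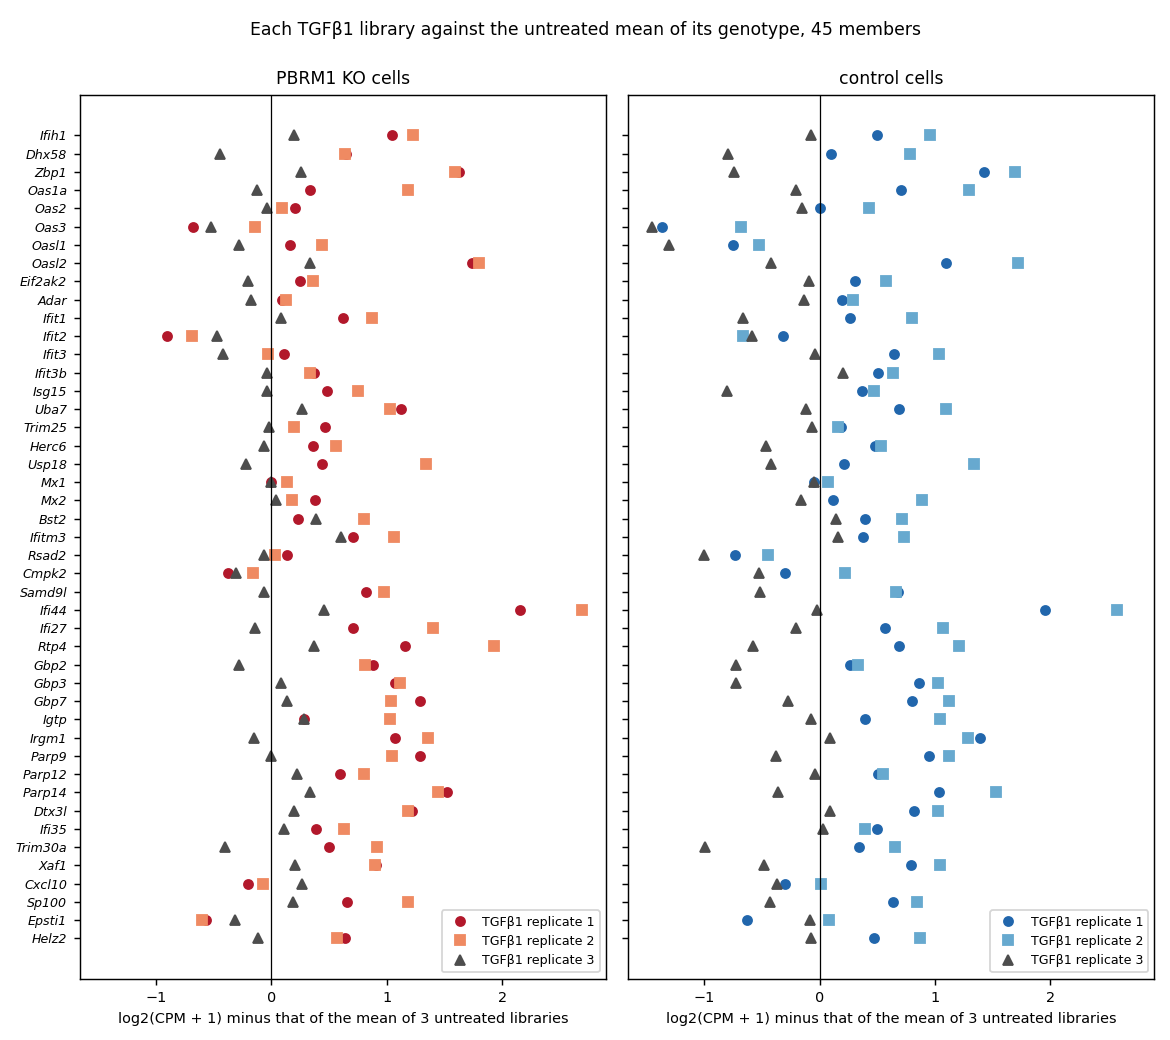
Each TGFβ1 library against the mean of the 3 untreated libraries of its genotype, for 45 members, as a difference in log2(CPM + 1); PBRM1 KO on the left and control on the right, with 1 symbol a replicate. Replicates 1 and 2 lie right of 0 for most genes, while replicate 3 lies left of both in 38 of the 45 KO rows and 42 of the 45 control rows.

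Replicate 3 was the lowest of the 3 TGFβ1 libraries in 38 of the 45 members in KO cells and in 42 in control cells, against 45.1% and 41.3% of all tested genes. It was the highest in 3 members in KO cells, Cxcl10, Epsti1 and Ifit2. In KO cells 36 of the 45 members had TGFβ1 replicates 1 and 2 above all 3 untreated libraries, against 29.4% of all tested genes. Replicate 3 was above them too in 7 of these, Bst2, Ifitm3, Ifi44, Igtp, Parp12, Dtx3l and Ifi35, and below the untreated mean in 17. In control cells 30 members had replicates 1 and 2 above all 3 untreated libraries, against 25.9% of all tested genes, with replicate 3 above them in 2, Ifitm3 and Ifit3b, and below the untreated mean in 24. Replicate 3 was below all 3 untreated libraries in 8 members in KO cells and in 24 in control cells. For these counts, and for those below the untreated mean, no share of all tested genes is at hand. Whether they are unusual was not tested. With all 3 treated libraries required, 7 of the 41 tested members were above and 2 below in KO cells, against 16.1% and 13.7% of all tested genes, and 1 was above and 3 below in control cells, against 14% and 12.2%.

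The library medians of the 45 members, in log2 above untreated control cells, were 0.24, 0.58 and −0.37 in KO replicates 1, 2 and 3 with TGFβ1, and 0.47, 0.78 and −0.27 in control replicates 1, 2 and 3 with TGFβ1. They were −0.31, −0.24 and −0.56 in untreated KO replicates 1, 2 and 3, and 0.22, −0.05 and −0.25 in untreated control replicates 1, 2 and 3. Replicate 3 thus had the lowest median of its group in all 4 groups, treated or not. Among the TGFβ1 libraries of each genotype, replicate 3 also had the lowest median of the 7 TGFβ response genes. The 6 fibroblast markers summed to 56.7, 57.5 and 28.2 CPM in KO replicates 1, 2 and 3 with TGFβ1, and to 51.3, 105.9 and 33.4 CPM in control replicates 1, 2 and 3 with TGFβ1, lowest in replicate 3 like the members. They summed to 38.8, 28.3 and 28.9 CPM in untreated KO replicates and to 35.2, 49.1 and 43.6 CPM in untreated control replicates. Most of that sum was the collagen genes Col1a1 and Col1a2. The part of the fibroblast sum in the result was not tested, nor was what sets these libraries apart. In bulk libraries fewer responding cells and less RNA per cell cannot be told apart.

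**Figure D5:**
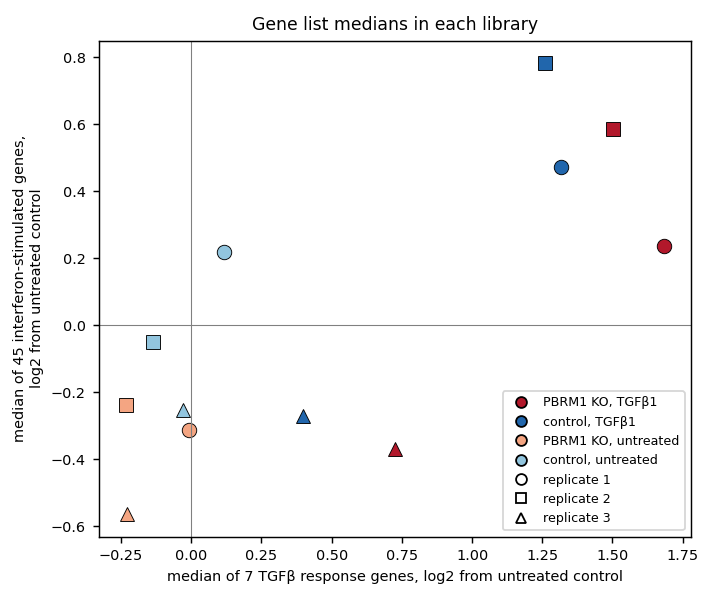
Median of the 45 interferon-stimulated genes (y) against the median of 7 TGFβ response genes (x) in each of the 12 libraries, both in log2 above untreated control cells. The TGFβ1 replicate 3 libraries, at x = 0.73 for PBRM1 KO and 0.40 for control, lie below 0 on the y axis, at −0.37 and −0.27, while replicates 1 and 2 with TGFβ1 lie above 0.

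By class, few members passed for TGFβ1 with all 12 libraries. That fit called 7.65% of all tested genes as higher and 3.72% as lower in KO cells, and 5.89% and 2.91% in control cells. In KO cells 2 of the 4 tested members of the PARP and Dtx3l class and 1 of the 8 tested antiviral effectors rose and 1 of 3 in the IFIT family fell, with 0 of 5 interferon-inducible GTPases and 0 of 5 in the ISG15 system. In control cells 0 rose in any of these, and 2 of the 6 in the OAS family with the double-stranded RNA enzymes and 1 in the IFIT family fell. The replicate block in KO cells, which called 12% of all tested genes as higher, gave 4 of 4 higher in the PARP and Dtx3l class, 3 of 5 GTPases, 6 of 8 effectors and 2 of 5 in the ISG15 system. Without both replicate 3 libraries the counts were higher, in a fit that called 16% of all tested genes as higher and 12% as lower in KO cells, and 13.9% and 10% in control cells. The PARP and Dtx3l class rose in 4 of 4 tested members in KO cells and in 4 of 4 in control cells, with median log2 fold changes of 1.19 and 1.00. Of the 5 interferon-inducible GTPases, 4 rose in each genotype (medians 1.23 in KO cells and 1.02 in control cells), as did 6 of the 8 tested antiviral effectors (0.90 in KO cells and 0.63 in control cells). The OAS family with the double-stranded RNA enzymes had 2 of 6 higher and 0 lower in KO cells, and 3 of 6 higher and 2 lower in control cells. The IFIT family had 1 of 3 higher and 1 lower in each genotype. In control cells the higher one was Ifit3, with the limit on its entry given above. The ISG15 system, with Isg15, its E1 enzyme Uba7, the ligases Herc6 and Trim25 and the protease Usp18, had 4 of 5 higher in KO cells and 2 of 5 in control cells; the difference between genotypes was not called for any member in the interaction fit.

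With all 12 libraries Ifih1 and Gbp2, the highest members of their classes, did not pass for TGFβ1. Ifih1 had 16.1, 18.4 and 8.49 CPM in KO libraries with TGFβ1 (0.95 ± 0.32, adjusted p = 0.0719) and 16.6, 23.3 and 10.9 CPM in control libraries with TGFβ1 (0.55 ± 0.30, adjusted p = 0.289), against the untreated values given above. Gbp2 had 42.4, 40.2 and 18.4 CPM in KO libraries with TGFβ1 (0.56 ± 0.35, adjusted p = 0.322) and 31.4, 32.8 and 15.3 CPM in control libraries with TGFβ1 (0.03 ± 0.35, adjusted p = 0.974). In both genes replicate 3 was the lowest of its group. With the replicate block in KO cells Ifih1 passed (0.94 ± 0.19, adjusted p = 0.00329) and Gbp2 was at 0.52 ± 0.20 (adjusted p = 0.0791). Ifih1 passed in both genotypes without both replicate 3 libraries, at 1.21 ± 0.22 in KO cells (adjusted p = 0.000824) and 0.78 ± 0.21 in control cells (adjusted p = 0.013), and Gbp2 in KO cells (0.85 ± 0.23, adjusted p = 0.0123), with 0.30 ± 0.23 in control cells (adjusted p = 0.395).

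Trim25, the ubiquitin ligase that activates the RNA sensor RIG-I, varied little: it had 72.6, 59.9 and 51.5 CPM in KO libraries with TGFβ1, 69.4, 68.1 and 58.1 CPM in control libraries with TGFβ1, 58.3, 51.0 and 47.2 CPM in untreated KO libraries and 69.0, 59.1 and 54.4 CPM in untreated control libraries. Its groups overlapped in every comparison. Ifi35, which works with NMI in innate signalling, had 28.1, 33.5 and 23.1 CPM in KO libraries with TGFβ1 and 31.1, 28.9 and 22.2 CPM in control libraries with TGFβ1, against 21.5, 23.1 and 19.4 CPM in untreated KO libraries and 21.9, 20.3 and 23.2 CPM in untreated control libraries. Without both replicate 3 libraries its log2 fold changes of 0.50 ± 0.12 in KO cells (adjusted p = 0.00566) and 0.45 ± 0.12 in control cells (adjusted p = 0.0137) passed, as did that in KO cells with the replicate block (0.39 ± 0.13, adjusted p = 0.0476).

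The genes that lead up to the set were taken as a list of 40: ligands, receptors, kinases and factors, inhibitors and the sensing pathway. None of the interferon ligands listed was found at more than a trace. Ifnb1, Ifna2, Ifna4, Ifnl2, Ifnl3 and Ifnk had 0 counts in all 12 libraries, which allows up to 3 counts, or 0.267 to 0.324 CPM, in a library. Ifng had 2 counts and Ifne 3 counts over the 12 libraries together. These floors cover counting error only.

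Of the 32 listed genes that were tested, 0 passed between KO and control cells with TGFβ1 or without it in the fit of all 12 libraries. With TGFβ1, the replicate block and DESeq2 each called 1 as lower, beside 109 and 64 of all 14012 genes. In untreated cells DESeq2 called 3 as lower, beside 81 of all 14012 genes. So did the fit without both TGFβ1 replicate 3 libraries, which named Ikbke (adjusted p = 0.0133), Ifnar2 (adjusted p = 0.0148) and Sting1 (adjusted p = 0.0102), beside 1.02% of all genes. Ikbke, a kinase of innate sensing named after its values were seen, had 5.76, 4.08 and 3.75 CPM in KO libraries with TGFβ1, against 7.66, 7.78 and 9.08 CPM in control libraries with TGFβ1 (−0.87 ± 0.17, adjusted p = 0.0655; with the replicate block 0.0277). It had 3.64, 4.09 and 3.79 CPM in untreated KO libraries, against 8.41, 6.54 and 6.38 CPM in untreated control libraries (−0.89 ± 0.18, adjusted p = 0.0619). No KO library reached the lowest control in either condition. Of the type I receptor chains, Ifnar1 had 20.7, 19.5 and 18.9 CPM in KO libraries with TGFβ1, 20.5, 20.7 and 21.5 CPM in control libraries with TGFβ1, 17.0, 17.9 and 19.6 CPM in untreated KO libraries and 22.1, 19.9 and 22.2 CPM in untreated control libraries, with −0.24 ± 0.10 on the log2 scale for KO over control untreated (adjusted p = 0.559). Ifnar2 had 17.9, 20.7 and 20.0 CPM in untreated KO libraries, against 29.6, 29.8 and 27.0 CPM in untreated control libraries, without overlap (−0.56 ± 0.12, adjusted p = 0.0722), and 21.7, 26.8 and 23.2 CPM in KO libraries with TGFβ1, against 29.0, 29.9 and 35.2 CPM in control libraries with TGFβ1 (−0.40 ± 0.11, adjusted p = 0.239). Ifnar2 was below every control in every KO library in both conditions, and passed with all 12 libraries in neither.

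Stat2 and Irf9 did not pass in any of the 4 comparisons between groups with all 12 libraries. Stat2 had 7.20, 10.3 and 7.77 CPM in untreated KO libraries, against 13.4, 12.2 and 12.9 CPM in untreated control libraries (−0.61 ± 0.19, adjusted p = 0.349). Irf9 gave −0.40 ± 0.33 for KO over control untreated (adjusted p = 0.91), 0.64 ± 0.32 for TGFβ1 in KO cells (adjusted p = 0.223) and 0.67 ± 0.31 for TGFβ1 in control cells (adjusted p = 0.207). Irf7, the factor that amplifies type I interferon production, had 3.96, 5.48 and 0.804 CPM in KO libraries with TGFβ1, 5.29, 8.05 and 1.51 CPM in control libraries with TGFβ1, 1.60, 2.64 and 1.66 CPM in untreated KO libraries and 3.80, 4.05 and 4.26 CPM in untreated control libraries. Its TGFβ1 replicate 3 libraries were below every other library of their genotype.

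TGFβ1 changed 5 of the 32 listed genes in KO cells, 4 higher and 1 lower, where 7.65% and 3.72% of all tested genes passed, and 2 in control cells, both higher, where 5.89% and 2.91% passed. In the fit without both replicate 3 libraries 11 were higher and 2 lower in KO cells, beside 16% and 12% of all genes, and 11 were higher and 1 lower in control cells, beside 13.9% and 10%. Socs3, an inhibitor of JAK kinases, rose in both. It had 28.7, 21.7 and 22.8 CPM in KO libraries with TGFβ1, against 13.4, 12.6 and 13.1 CPM in untreated KO libraries (0.89 ± 0.12, adjusted p = 0.000707). Socs3 had 24.6, 21.0 and 20.5 CPM in control libraries with TGFβ1, against 12.5, 11.9 and 13.1 CPM in untreated control libraries (0.82 ± 0.12, adjusted p = 0.00149). The groups stood clear of each other and replicate 3 was in range. The interferon gamma receptor chain Ifngr1 rose by 0.51 ± 0.13 in KO cells (adjusted p = 0.0231), with 85.4, 79.1 and 60.9 CPM treated, against 52.1, 52.5 and 52.0 CPM untreated. It rose by 0.47 ± 0.13 in control cells (adjusted p = 0.041), with 75.5, 89.1 and 63.3 CPM treated, against 60.6, 50.3 and 53.9 CPM untreated.

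Socs1, the other JAK inhibitor of the list, fell in KO cells, where it had 4.06, 3.09 and 7.51 CPM with TGFβ1, against 11.4, 11.1 and 15.3 CPM untreated (−1.36 ± 0.33, adjusted p = 0.0197). Control libraries held 4.42, 3.26 and 8.33 CPM with TGFβ1, against 10.8, 10.5 and 14.2 CPM untreated (−1.14 ± 0.33, adjusted p = 0.0509), again without overlap. The replicate 3 libraries, in which the members of the set were lowest, held the most Socs1 of their groups, treated and untreated. Irf8, a factor best known from myeloid cells, rose in KO cells to 10.7, 10.3 and 11.2 CPM with TGFβ1, against 4.53, 4.37 and 6.19 CPM untreated (1.08 ± 0.19, adjusted p = 0.00295), and gave 0.38 ± 0.19 in control cells (adjusted p = 0.229). The 8 leukocyte markers, nearly all of it Cd68 and Lyz2, summed to between 8.97 and 9.26 CPM in KO libraries with TGFβ1, against between 7.91 and 10.1 CPM in untreated KO libraries, and the plasmacytoid marker Siglech had 0 counts in both. Sting1, the adaptor of cytosolic DNA sensing, rose in KO cells to 12, 13 and 8.94 CPM, against 6.49, 7.28 and 6.84 CPM untreated (0.70 ± 0.15, adjusted p = 0.00863), and gave 0.19 ± 0.14 in control cells (adjusted p = 0.432). That Irf8 and Sting1 responded differently by genotype was not called, since the interaction passed for no gene.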

How the data were processed

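Messenger RNA of 12 mouse 4T1 libraries was counted at the 3′ end from poly(A)-primed cDNA, with duplicates removed by molecular identifier (per the labels' protocols). The submitters' processing notes name STAR 2.7.11, Subread 2.1.1 with featureCounts, fastp 0.24.0, edgeR 3.38.4 and SAMtools 1.22.1, and genome build mm39; settings and annotation release are not given in the sources used here. Deposited gene values were expected counts, per the file headers and values: 91.8% were whole and the rest fractional, so reads fitting several genes appear shared out. The deposited CPM values were scaled by library total, per the file headers.

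Counts were rounded, filtered with filterByExpr (14012 of 78317 genes kept) and scaled by TMM. EdgeR 4.0.16 in R 4.3.3 was fitted to all 12 libraries with 1 mean per group and a quasi-likelihood F test, and p was adjusted by Benjamini-Hochberg over all tested genes. Standard errors were taken as the log2 fold change divided by √F. The procedure was tested on simulated data. Replicates are biological per the labels' protocols, and p-values measure the spread between these 3 libraries a group. The library medians use log2(CPM + 1). The common biological coefficient of variation was 12.5%, replicate correlations were 0.978 to 0.992, and no pair of replicates was a copy (chi-square per gene 3.45 to 20.7).

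The members and lists were chosen with earlier results of these data known. Values in every library are given for members past the threshold (at most 8 a comparison), the highest member of each role class, a panel of genes (Isg15, Ifit1, Rsad2, Mx1, Oasl2, Cxcl10 and Irf7, with 1 more not reported here), pathway genes past the threshold and named receptors and factors; Cmpk2, Ifi44, Epsti1, Ifit3 and Ikbke were named after their values were seen. The labels do not say that a replicate number marks a shared day. Deviations from group means correlated between same-numbered libraries at 0.396, 0.416 and 0.726 for genotype with TGFβ1, and at 0.201, 0.139 and 0.202 for TGFβ1 in KO cells, so these were taken as paired from the data. Alternatives tried were DESeq2 1.42.0, limma-voom 3.58.1, RLE or total-count scaling, unrounded counts, no filter, only the libraries compared, the replicate block, each library left out and the fit without both TGFβ1 replicate 3 libraries; promoter letters came from RefSeq, GRCm38.p6.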

Additional observations from a re-analysis of the deposited data

How the results depend on the processing

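No called result reversed under the alternatives run. For single named genes, 34 values passed newly under an alternative and 87 no longer passed. Counts of members past the threshold moved by over 1.5 times in these cases, and by less in others. For lower in KO than in control with TGFβ1 (0 in the main result), DESeq2 gave 2, no filter on low counts 9, the replicate block 7 and the fit without both TGFβ1 replicate 3 libraries 1. Over all genes, in that order, 64 of 14012, 181 of 33568, 109 of 14012 and 55 of 14260 were lower. For lower in KO than in control untreated (3), no filter gave 12, only the libraries compared 5, the replicate block 10 and the fit without both replicate 3 libraries 6. All-gene counts were 191 of 33568, 101 of 13412, 105 of 14012 and 145 of 14260. For higher with TGFβ1 in control cells (0), DESeq2 gave 1, no filter 18, the replicate block 13 and the fit without both replicate 3 libraries 26. All-gene counts were 913 of 14012, 1404 of 33568, 1507 of 14012 and 1988 of 14260. For lower (3), limma-voom gave 1, beside 383 of 14012 genes. For higher with TGFβ1 in KO cells (3), DESeq2 gave 6, limma-voom 1, no filter 25, only the libraries compared 6, the replicate block 22 and the fit without both replicate 3 libraries 27. All-gene counts were 1130 of 14012, 837 of 14012, 1500 of 33568, 904 of 13405, 1682 of 14012 and 2277 of 14260. For the interaction (0 higher), no filter gave 1, Oasl1, beside 8 of 33568 genes. The cause was not tested.

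Leaving out 1 library at a time gave 0 to 3 members lower in KO than in control untreated, 0 to 18 higher and 0 to 3 lower with TGFβ1 in control cells, 1 to 17 higher and 0 to 1 lower with TGFβ1 in KO cells, and 0 to 0 in the other counts. Deviations from group means correlated between same-numbered libraries at 0.149, 0.069 and 0.125 for untreated genotype. For TGFβ1 in control cells they correlated at 0.258, −0.0835 and 0.137. The replicate numbers were not taken as pairs in either comparison.

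Depth limits the set at its low end: Oas3, Ifit3, Cmpk2, Trim30a and the 4 untested members rest on few counts a library.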

Other observations

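Relatives of the members by symbol that are not in the set were counted in the same fit, a rule chosen after the data were seen. Of 27 such genes, 0 passed between KO and control cells with TGFβ1 or without it. With TGFβ1 in KO cells 2 rose and 1 fell, and in control cells 0 rose and 1 fell, where 7.65% of all tested genes rose and 3.72% fell in KO cells and 5.89% rose and 2.91% fell in control cells. Without both TGFβ1 replicate 3 libraries 8 rose and 3 fell in KO cells, and 5 rose and 0 fell in control cells, beside 16% and 12% of all tested genes in KO cells and 13.9% and 10% in control cells.

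Ifi47, an immunity-related GTPase, had 41.3, 34.4 and 12.2 CPM in KO libraries with TGFβ1, against 5.24, 10.0 and 4.53 CPM in untreated KO libraries (2.13 ± 0.51, adjusted p = 0.0182). In control cells it had 45.5, 41.7 and 11.9 CPM with TGFβ1, against 14.6, 9.03 and 9.05 CPM untreated (1.59 ± 0.49, adjusted p = 0.0591), and without both replicate 3 libraries the log2 fold changes were 2.49 ± 0.24 in KO cells and 1.99 ± 0.22 in control cells. TGFβ1 replicate 3 was again the lowest of its group.

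Gbp4, a guanylate-binding protein, was lower with TGFβ1. No treated library of it passed the filter on low counts, so it was in the test through its untreated libraries. It had 0.377, 0.597 and 0.894 CPM in KO libraries with TGFβ1, against 2.67, 2.93 and 2.37 CPM in untreated KO libraries (−2.07 ± 0.51, adjusted p = 0.0208). In control cells Gbp4 had 0.108, 0.694 and 0.0946 CPM with TGFβ1, against 2.77, 0.952 and 0.851 CPM untreated (−2.22 ± 0.64, adjusted p = 0.0475). Neither genotype's groups overlapped. Without both replicate 3 libraries the difference passed in KO cells (−2.45 ± 0.56, adjusted p = 0.00444) and not in control cells (−1.80 ± 0.64, adjusted p = 0.0527). Gbp9 was at −0.65 ± 0.33 in KO cells (adjusted p = 0.218) and −1.12 ± 0.34 in control cells (adjusted p = 0.0553), and Gbp6 at −0.36 ± 0.54 in KO cells (adjusted p = 0.722) and −0.15 ± 0.50 in control cells (adjusted p = 0.888). Ifitm2, next of kin to Ifitm3, rose by 0.39 ± 0.11 on the log2 scale with TGFβ1 in KO cells (adjusted p = 0.0398).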
